A study of Mus musculus with 16 samples.

Results

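Interferon-stimulated genes were taken as 35 listed mouse symbols, and 34 of them had a row among the 21965 genes of the count table. Mx2, an antiviral GTPase, was not analysed here. All 34 passed the filter on low counts and were among the 13811 genes tested. Gene expression was measured by RNA-seq in ileum of male C57BL/6 mice aged 8 to 10 weeks when the diets began. WT PF (n = 4) were wild-type mice pair-fed a liquid diet without ethanol, and WT EtOH (n = 3) were wild-type mice on a liquid diet whose ethanol rose in steps and stood at 6% (v/v) for the last 3 weeks. The fat-1 PF (n = 4) and fat-1 EtOH (n = 5) groups were littermates on the same diets that carried 1 copy of fat-1, written Fat1+/- in the labels. The fat-1 transgene comes from C. elegans, is expressed in all tissues and encodes an enzyme that turns n6 into n3 fatty acids. It is not the mouse cadherin gene Fat1, and its own reads were not analysed here. The design crosses ethanol feeding with the transgene, so that each can be compared at both levels of the other.

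Interferons are secreted proteins that bind receptors coupled to JAK kinases, and these phosphorylate STAT proteins. Type I and type III interferons act through a complex with STAT2 and IRF9 that binds the interferon-stimulated response element (ISRE) in target promoters. Interferon gamma acts at gamma-activated sites (GAS). In the gut, tonic interferon signalling driven in part by the microbiota keeps many target genes expressed without infection, and the epithelium responds mainly to type III interferon. The listed genes span ISG factors and regulators (Irf7, Irf9, Stat2, Parp9, Parp14, Dtx3l), the ISG15 conjugation system (Isg15, Usp18), nucleic acid sensors (Ifih1, Ddx58, Zbp1), antiviral effectors, and interferon-inducible GTPases of the Gbp and Irg families.

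Promoters are shown for the members called with all 16 libraries that had one in the RefSeq table (GRCm38.p6), because the ISRE is the site that the complex with STAT2 and IRF9 is known to bind. Each runs 5′ to 3′ on the strand of its gene from 250 bases before the start to 50 bases after it, and capitals mark ISRE matches.
Isg15, chr4:156200769-156201068, minus strand: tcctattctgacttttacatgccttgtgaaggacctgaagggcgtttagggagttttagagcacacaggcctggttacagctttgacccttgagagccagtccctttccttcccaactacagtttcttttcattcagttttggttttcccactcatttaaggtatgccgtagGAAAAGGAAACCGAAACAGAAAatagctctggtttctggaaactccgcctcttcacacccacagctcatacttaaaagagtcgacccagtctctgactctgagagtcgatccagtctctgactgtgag
Ifit1, chr19:34640639-34640938, plus strand: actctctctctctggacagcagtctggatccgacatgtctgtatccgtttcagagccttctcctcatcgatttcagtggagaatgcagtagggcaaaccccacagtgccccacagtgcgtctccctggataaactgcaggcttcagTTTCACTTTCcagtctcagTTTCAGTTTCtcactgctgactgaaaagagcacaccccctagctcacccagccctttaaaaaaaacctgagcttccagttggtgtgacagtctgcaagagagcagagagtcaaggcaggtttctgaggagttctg
Ddx58, chr4:40239776-40240075, minus strand: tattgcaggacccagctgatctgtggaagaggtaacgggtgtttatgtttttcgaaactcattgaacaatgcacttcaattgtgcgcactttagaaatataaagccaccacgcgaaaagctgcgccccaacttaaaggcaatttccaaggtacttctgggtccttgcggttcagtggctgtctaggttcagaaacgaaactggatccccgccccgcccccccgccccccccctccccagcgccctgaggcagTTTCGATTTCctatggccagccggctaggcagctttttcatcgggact
Irgm1, chr11:48871371-48871670, minus strand: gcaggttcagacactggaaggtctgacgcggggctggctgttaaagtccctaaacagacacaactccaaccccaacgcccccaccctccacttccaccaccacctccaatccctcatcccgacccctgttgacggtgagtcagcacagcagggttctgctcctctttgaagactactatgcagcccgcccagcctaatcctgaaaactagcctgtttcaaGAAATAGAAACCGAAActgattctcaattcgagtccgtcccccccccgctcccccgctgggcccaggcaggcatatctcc

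The ISRE was searched as the letters GAAANNGAAA and the GAS as TTCNNNGAA, on both strands, with N for any base. Isg15 held 3 overlapping matches, whose leftmost bases lay at -78, -72 and -66 from the start (-1 is the base before it). Ifit1 held 2 at -104 and -85, whose letters read on the opposite strand. Irgm1 held 2 overlapping matches at -30 and -24, and Ddx58 held 1 on the opposite strand, with its leftmost base 3 bases into the transcript. Of the 34 genes, 25 had a promoter in the table, and 16 of these (64%) held an ISRE, against 3.99% of 27025 genes with a promoter. The GAS letters were in 6 of the 25 (24%), against 9.55% of the same genes. Usp18 and Rtp4 had no entry. All 6 GTPases with a promoter (Gbp2, Gbp3, Gbp7, Igtp, Irgm1 and Irgm2) held an ISRE, and Gbp7, Igtp and Irgm2 also held a GAS. The motifs were searched separately, overlapping matches were kept, and a match describes letters in this window and is not a measured binding site.

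Libraries held 8422645 to 11438539 counts, so that 3 counts, taken as the floor of detection, equalled 0.246 to 0.421 CPM (counts scaled to a common library size). Libraries did not stand alike in markers of gut position, which were checked against the ileum label. The summed large intestine list (9 genes, 8 tested) reached 22368 and 22910 CPM in fat-1 EtOH 3 and 4 and 8051 in WT EtOH 2, against 1016 to 2440 in the other libraries. Car1, a colonic carbonic anhydrase on that list, stood at 11157 and 12208 CPM in fat-1 EtOH 3 and 4, at 4041 in WT EtOH 2 and at 0 to 79.1 in the others. The summed proximal small intestine list (8 genes, all tested) was highest in fat-1 PF 2 and 4, at 61835 and 58038 CPM, and these libraries held 7.58 and 3.56 CPM of Slc10a2, the ileal bile acid transporter, against 394 to 1382 in all others. WT EtOH 2 kept ileal markers, with a summed bile acid handling list of 6829 CPM (6465 and 6712 in the other WT EtOH libraries), against 913 and 1866 in fat-1 EtOH 3 and 4. These 3 libraries are called large-intestine-like below for the large intestine list alone. The proximal list was higher in every PF library (6316 or more) than in every EtOH library (5395 or less), and Gata4, a proximal factor on it, stood at 25.6 to 156 CPM in PF and at 0 to 1.11 in EtOH libraries. Diet and position along the gut as these markers show it can therefore not be told apart, and the comparisons are given below with and without those of the 5 named libraries that entered them.

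Levels between genes are given as mean CPM per kilobase of exon over 16 mice. Lgals3bp, a secreted glycoprotein, stood highest at 68.6, followed by Irf7, the factor that amplifies type I interferon production, at 40.5, and Oasl1, a relative of the 2′-5′ oligoadenylate synthetases, at 25.1. Isg15, a ubiquitin-like modifier, reached 23.6. At the other end stood Gbp6 at 0.36, Ifi44 at 0.366 and Oas2 at 0.932, all on the same per-length scale. Every gene was counted in every mouse, and the lowest single count was 6, for Ifi44 and for Gbp6. Some counts are uncertain because gene copies share sequence. Of all 75-base windows in the transcripts of Gbp6, 67.3% also occurred in other genes, as did 47.6% for Oas1a, 41.1% for Ifit3, 11.3% for Gbp7, 10.5% for Rtp4, 7.8% for Igtp and 5.19% for Ifit1. Parp9 and Dtx3l overlap on opposite strands, and whether the counting used strand is not given in the sources used here. The spans of Igtp (chr11:58199556-58207591) and Irgm2 (chr11:58199618-58222782) overlap on the plus strand. How reads common to both were counted is not given either.

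The 3 genes with the highest level per length were not called in any comparison. Lgals3bp stood at 229, 179, 165 and 183 CPM in WT PF 1 to 4, at 197, 293, 158 and 207 in fat-1 PF, at 183, 189 and 181 in WT EtOH, and at 218, 212, 156, 158 and 227 in fat-1 EtOH. Irf7 stood at 181, 133, 144 and 144 CPM in WT PF, at 111, 214, 162 and 202 in fat-1 PF, at 115, 149 and 131 in WT EtOH, and at 165, 151, 170, 151 and 148 in fat-1 EtOH. Group ranges of both genes overlapped in every comparison. Oasl1 was more uneven, at 63.8, 71.5, 57.8 and 69 CPM in WT PF, 66.1, 84.5, 67.2 and 104 in fat-1 PF, 64.8, 44.5 and 60.4 in WT EtOH, and 107, 67.6, 31.7, 29.5 and 57.8 in fat-1 EtOH. Its lowest values were those of fat-1 EtOH 3 and 4, and its highest were those of fat-1 EtOH 1 and fat-1 PF 4.

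**Figure D1:**
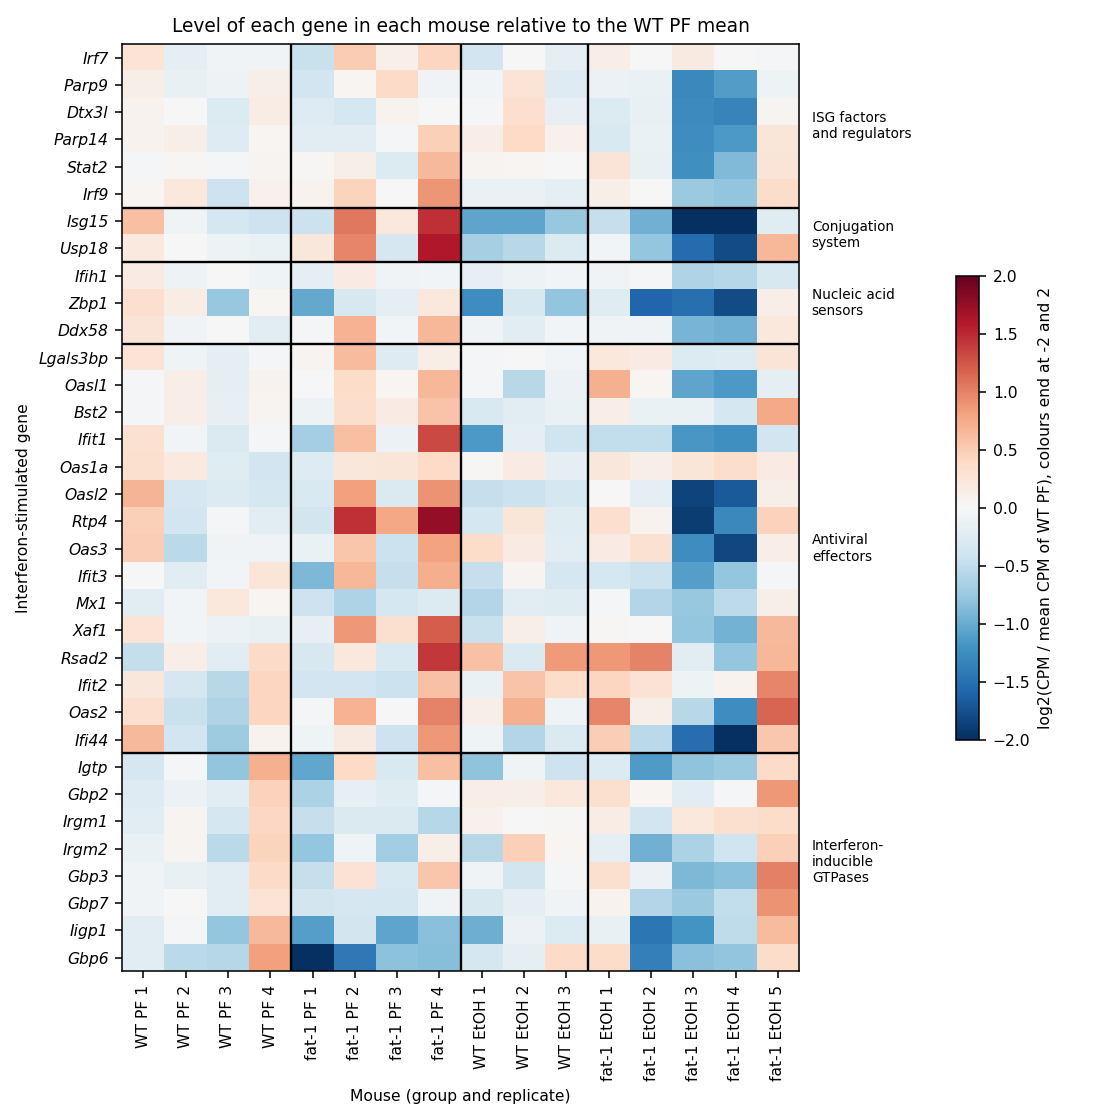
Each row is 1 of 34 interferon-stimulated genes and each column 1 of 16 mice, and colour gives log2 of the CPM over the WT PF mean, from blue (lower) to red (higher), with colours ending at -2 and 2. Black lines part roles and groups. Most rows outside the GTPases are bluest in fat-1 EtOH 3 and 4, and many are reddest in fat-1 PF 4.

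The comparison of fat-1 EtOH with fat-1 PF set the diets against each other in mice with the transgene. Isg15 was 3.46-fold lower, Ifit1 2.26-fold, Usp18 2.3-fold, Rtp4 2.47-fold and Ddx58 1.57-fold lower in fat-1 EtOH, and Irgm1 was 1.47-fold higher. These 6 of 34 genes passed the edgeR quasi-likelihood test at a Benjamini-Hochberg adjusted p of 0.05 over all tested genes, 5 lower and 1 higher, or 17.6% of the genes. Over all tested genes 37.4% were called, 18.8% lower and 18.7% higher. The median log2 fold change was -0.38 over the 34 genes and 0.05 over all genes, with 23 of 34 negative. No gene of the 34 had groups that did not overlap, against 24% of all tested genes. Bulk tissue cannot tell fewer cells of a type from less RNA per cell.

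Isg15 is conjugated to proteins during the interferon response. It lies at chr4:156199424-156200818 (GRCm38) on the minus strand. It stood at 14.4, 40.4, 22.4 and 53.4 CPM in fat-1 PF 1 to 4 and at 14, 9.95, 3.44, 3.39 and 16.4 in fat-1 EtOH 1 to 5. The highest values were those of fat-1 PF 2 and 4, the lowest those of fat-1 EtOH 3 and 4, and fat-1 EtOH 5 lay above fat-1 PF 1. The log2 fold change was -1.79 (SE 0.47, edgeR adjusted p = 0.00929). In WT PF the values were 29.4, 18.4, 15.1 and 14.5, and in WT EtOH 9.31, 9.34 and 11.4. The wild-type groups did not overlap, but their log2 fold change of -0.95 (SE 0.55) was not called (edgeR adjusted p = 0.442).

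Usp18 encodes the protease that removes ISG15 from proteins and also damps signalling at the type I interferon receptor. It lies at chr6:121245906-121270917 on the plus strand. Its CPM was 8.69, 14.5, 5.88 and 22.5 in fat-1 PF and 7.13, 4.34, 2.54, 2.14 and 11.8 in fat-1 EtOH. The same libraries held the extremes as for Isg15. The log2 fold change was -1.20 (SE 0.45, edgeR adjusted p = 0.0474). Leaving out 1 mouse at a time ended this call in 13 of 16 fits, all but those without fat-1 PF 1, fat-1 PF 3 or fat-1 EtOH 5, as did upper-quartile scaling (adjusted p = 0.0672). In WT PF it was 8.52, 7.47, 6.89 and 6.75 CPM and in WT EtOH 4.66, 5.04 and 6.13. Again the wild-type groups did not overlap and the difference of -0.49 (SE 0.52) was not called.

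Ifit1 encodes a protein that binds viral RNA lacking cap methylation. It lies at chr19:34640871-34650009 on the plus strand. It stood at 25.7, 62, 38 and 102 CPM in fat-1 PF and at 29.1, 29.2, 18.3, 17.6 and 31.6 in fat-1 EtOH. Fat-1 PF 1 lay below 3 of the 5 fat-1 EtOH mice. The log2 fold change was -1.18 (SE 0.33, edgeR adjusted p = 0.014), and the call was lost in 1 of the 16 fits that each left out 1 mouse, that without fat-1 PF 4, and with limma voom (adjusted p = 0.0588). In WT PF the values were 50.8, 39.4, 33.4 and 40.4 and in WT EtOH 18.5, 35.8 and 31.1, with a log2 fold change of -0.53 (SE 0.39) that was not called.

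Rtp4, a chaperone of G protein-coupled receptors that is induced by interferon, lies at chr16:23520291-23614222 on the plus strand. It stood at 7.1, 25.3, 15.6 and 31.1 CPM in fat-1 PF and at 11.6, 9.61, 2.46, 3.75 and 12.6 in fat-1 EtOH, a log2 fold change of -1.30 (SE 0.46, edgeR adjusted p = 0.0381). WT PF held 12.7, 7.02, 9 and 7.9 CPM and WT EtOH 7.16, 10.8 and 7.73, so that fat-1 PF 2, 3 and 4 were the 3 highest mice of all 16. Ddx58, which encodes the RNA sensor RIG-I, lies at chr4:40203773-40239828 on the minus strand. It stood at 50, 82.1, 48.9 and 80.8 CPM in fat-1 PF and at 48.3, 48.2, 26.8, 26.1 and 58.7 in fat-1 EtOH, a log2 fold change of -0.65 (SE 0.24, edgeR adjusted p = 0.0423). Its WT PF values were 60.9, 48.3, 50.9 and 43.4 and its WT EtOH values 48.6, 43.6 and 48.9. Upper-quartile scaling ended both calls (adjusted p = 0.0519 for Rtp4 and 0.0842 for Ddx58). The Rtp4 call was lost in 6 of the 16 fits that each left out 1 mouse (without WT PF 3, fat-1 PF 2, 3 or 4, or fat-1 EtOH 3 or 4). The Ddx58 call was lost in 10, all but those without WT PF 4, fat-1 PF 1 or 3, or fat-1 EtOH 1, 2 or 5. For Ddx58, outside fat-1 PF 2 and 4 and fat-1 EtOH 3 and 4, all 12 mice lay between 43.4 and 60.9 CPM.

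Irgm1, a GTPase that acts on pathogen vacuoles and autophagy, went the other way. It lies at chr11:48861968-48871683 on the minus strand. Its CPM was 30.7, 34.4, 34.4 and 28.5 in fat-1 PF and 46.9, 32.4, 48.6, 52.5 and 54.5 in fat-1 EtOH. Fat-1 EtOH 2 alone lay within the range of fat-1 PF. The log2 fold change was 0.55 (SE 0.16, edgeR adjusted p = 0.0154), and with limma voom it was 0.46 and not called (adjusted p = 0.0917). WT PF stood at 35.8, 43.7, 33 and 55.9 CPM and WT EtOH at 44.5, 42.2 and 42.8, with a log2 fold change of 0.04 that was not called.

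**Figure D2:**
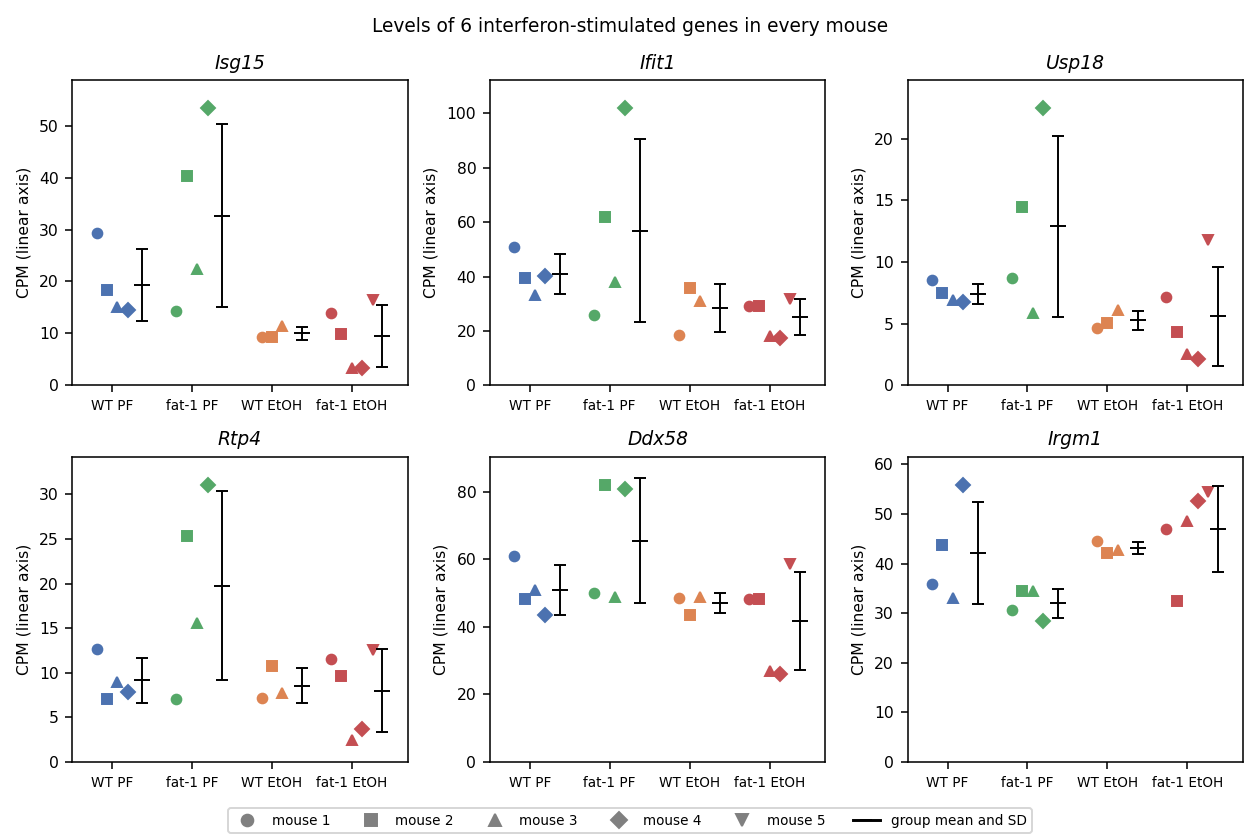
Each panel plots CPM on a linear axis from 0 for 1 gene, with 1 symbol per mouse, colours for the 4 groups, and a black bar for the group mean and SD. In the 5 genes that fell, fat-1 PF 2 and 4 (squares and diamonds) stand highest and fat-1 EtOH 3 and 4 lowest; Irgm1 has 4 of 5 fat-1 EtOH mice above every fat-1 PF mouse.

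The other 28 genes were not called in this comparison, with log2 fold changes from -0.89 (Oasl2) to 0.92 (Gbp6). The 3 with the smallest p were Xaf1, a pro-apoptotic interferon target (-0.75, SE 0.31, edgeR adjusted p = 0.072), Gbp2 (0.50, SE 0.21, adjusted p = 0.0744) and Irf9 (-0.53, SE 0.24, adjusted p = 0.0954). All 6 ISG factors and regulators had negative values, from -0.53 to -0.13 (Irf7, which was 0.02 with upper-quartile scaling), and none was called. The 3 sensors were negative as well, and Ddx58 was the one that passed. Among 15 antiviral effectors 11 were negative, and Ifit1 and Rtp4 passed. The GTPases differed in sign, with 7 of 8 at or above 0 (Gbp3 lay at 0.00) and a median of 0.36, and Irgm1 passed. With upper-quartile scaling 4 genes were called, Isg15 and Ifit1 lower and Gbp2 and Irgm1 higher.

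Several uncalled genes had their extremes in the same few libraries as Isg15. Irf9, the DNA-binding partner of STAT2, stood at 57.3 and 78.1 CPM in fat-1 PF 2 and 4 and at 25.3 and 24.4 in fat-1 EtOH 3 and 4, and between 31.7 and 54.6 in the other 12 mice. Stat2 stood at 86.3 CPM in fat-1 PF 4, at 23.6 and 29.9 in fat-1 EtOH 3 and 4, and between 45.6 and 66 in the other 13.

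Among the sensors, Ifih1, which encodes the long double-stranded RNA sensor MDA5, stood at 65.7 and 67.3 CPM in fat-1 EtOH 3 and 4 and between 80 and 112 in the other 14 mice. Zbp1 was the most uneven sensor, from 12.7 to 55.7 CPM, and its 3 lowest values were those of fat-1 EtOH 2, 3 and 4. Among the effectors, Oasl2 stood at 111 and 118 CPM in fat-1 PF 2 and 4 and at 101 in WT PF 1. It stood at 17.6 and 19.7 in fat-1 EtOH 3 and 4, and between 46.1 and 68.3 in the other 11 mice. Xaf1 stood at 18.2 and 23.2 CPM in fat-1 PF 2 and 4, at 5.82 and 5.17 in fat-1 EtOH 3 and 4, and between 7.34 and 15.7 elsewhere. Bst2, which encodes tetherin, and Ifit2 differed from these, with their highest values, 25.8 and 11.2 CPM, in fat-1 EtOH 5.

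**Figure D3:**
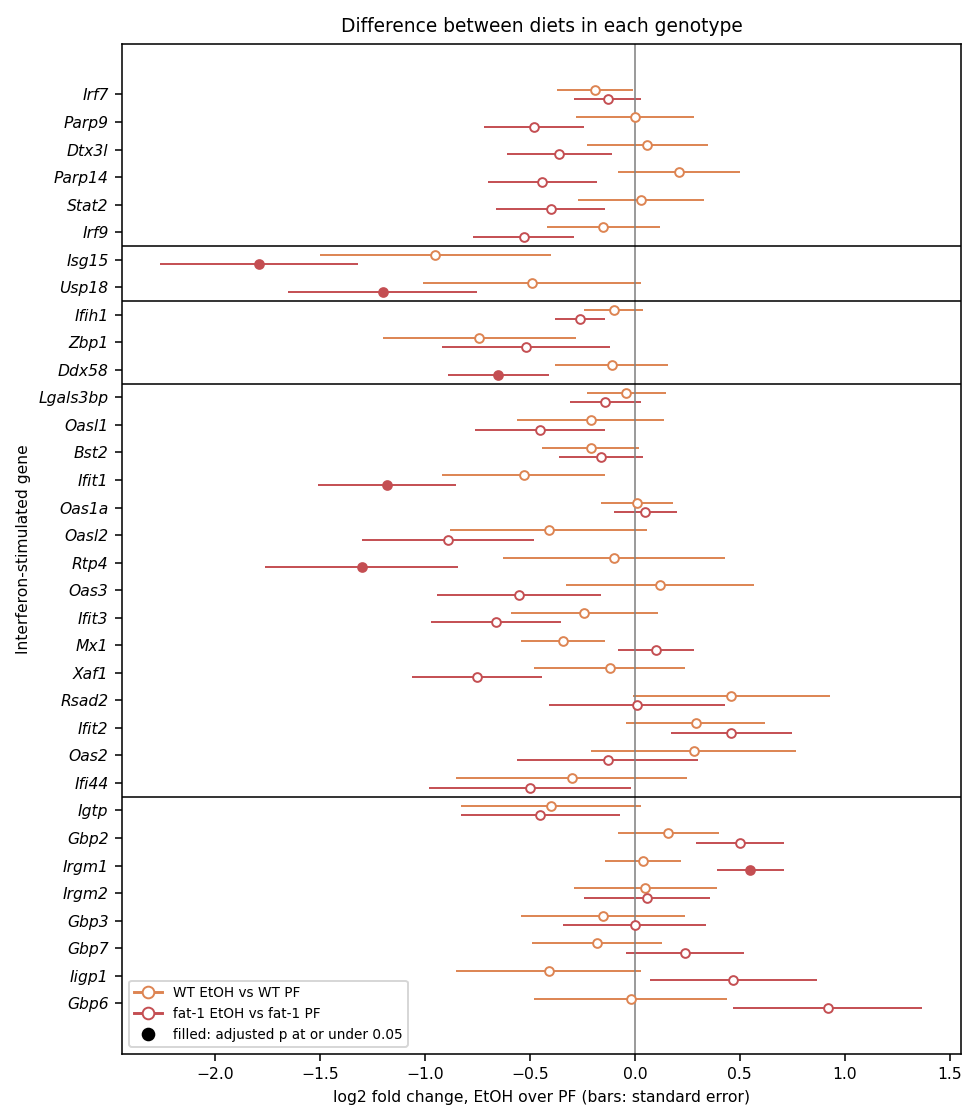
Points give the log2 fold change of EtOH over PF in WT (orange) and fat-1 mice (red) for 34 genes ordered by role, bars give the standard error, and filled points passed at an adjusted p of 0.05. The 6 filled points are all red, and 5 of them lie left of 0.

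Several extremes of the 34 genes lay in the same libraries. Fat-1 EtOH 3 and 4 were the 2 lowest of all 16 mice for 17 of the 34 genes, fat-1 PF 2 and 4 were the 2 highest for 11, and both held for 9. Fat-1 PF 4 alone held the highest value for 14 genes. These counts were not made over all tested genes, so they are not shown to be particular to the 34. The 2 low libraries also held the lowest summed T cell and intraepithelial lymphocyte markers (24.3 and 23.5 CPM, against 45.9 to 192 elsewhere), the lowest macrophage markers (178 and 123, against 211 to 777) and the lowest B cell markers (7.22 and 2.68, against 7.72 to 572). The epithelium sum was lowest there too (9562 and 9678, against 10724 to 16349), but its genes differed. Vil1, the brush border protein villin, stood at 809 and 873 CPM against 2159 to 3845 elsewhere, while Krt19, a keratin, stood at 2375 and 2440, above every PF library (975 to 2287). Smooth muscle markers moved with diet in all mice, at 906 to 1434 CPM in PF and 1859 to 4042 in EtOH libraries, with the highest sums in fat-1 EtOH 3 and 4. All 6 genes of that list were called higher both in fat-1 EtOH against fat-1 PF (log2 fold changes 1.06 to 1.81) and in the average over genotypes (0.83 to 1.38). Fat-1 PF 2 and 4 held 168 and 166 CPM of the T cell list and 315 and 361 of the macrophage list. Only fat-1 EtOH 5 stood higher in either. Their B cell sums were 7.72 and 82.4 CPM. The part of these markers in the result was not tested. The summed list for plasmacytoid dendritic cells, which make much interferon, stood at 902 and 653 CPM in fat-1 EtOH 3 and 4, of which Klk1 made up 851 and 614, and at 75 to 199 in the other 14 mice. Siglech, the more specific gene of that list, stood at 0.738 and 0.357 CPM there and at 8.55 in fat-1 EtOH 5.

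Without fat-1 EtOH 3 and 4 and WT EtOH 2, Isg15 still fell by 1.25 on the log2 scale (edgeR adjusted p = 0.0373), and Gbp2 rose by 0.73 (adjusted p = 0.0234). The other 5 genes were no longer called, with 29.7% of all tested genes called in that fit. Of these Irgm1 stayed near its value with all libraries (0.50, adjusted p = 0.0605), and Ifit1 stood at -0.89, Rtp4 at -0.77, Usp18 at -0.70 and Ddx58 at -0.31. Without fat-1 PF 2 and 4, none of the 34 was called by edgeR, with 13.9% of all tested genes called, and Isg15 stood at -0.95 (adjusted p = 0.214) and Irgm1 at 0.53 (adjusted p = 0.103). In that fit Rtp4 stood at -0.49, Usp18 at -0.38, Ifit1 at -0.33 and Ddx58 at -0.24. Without all 5 libraries, Isg15 stood at -0.44 (adjusted p = 0.355), Ifit1 at -0.07, Usp18 at 0.09, Ddx58 at 0.08, Rtp4 at 0.01 and Irgm1 at 0.47. In that fit 30 of 34 genes were above 0 with a median of 0.27, and Rsad2, the antiviral enzyme viperin, was called higher (1.18, adjusted p = 0.0182), with 11.9% of all tested genes called. Rsad2 stood at 5.83, 8.42, 5.88 and 19.5 CPM in fat-1 PF 1 to 4, and at 13.3, 14.5, 6.31, 4.28 and 11.6 in fat-1 EtOH 1 to 5. It stood at 5.25, 8.04, 6.33 and 9.56 in WT PF and at 10.9, 5.98 and 13.1 in WT EtOH. The 5 EtOH mice kept in that fit all lay above the 6 PF mice kept. But the libraries left out held its highest PF value (19.5) and its 3 lowest EtOH values (4.28, 5.98 and 6.31). With all 16 libraries Rsad2 stood at 0.01 in fat-1 EtOH over fat-1 PF and was not called (edgeR adjusted p = 0.982). Genes separated this way were not counted over all tested genes. Gbp2, a guanylate-binding protein, stood at 12.9, 17.7, 16.8 and 19.3 CPM in fat-1 PF, and at 24.8, 20.5, 17.1, 19.4 and 36.3 in fat-1 EtOH. These fits compared 3 with 4, 5 with 2 and 3 with 2 mice, and they were chosen after the data were seen.

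**Figure D4:**
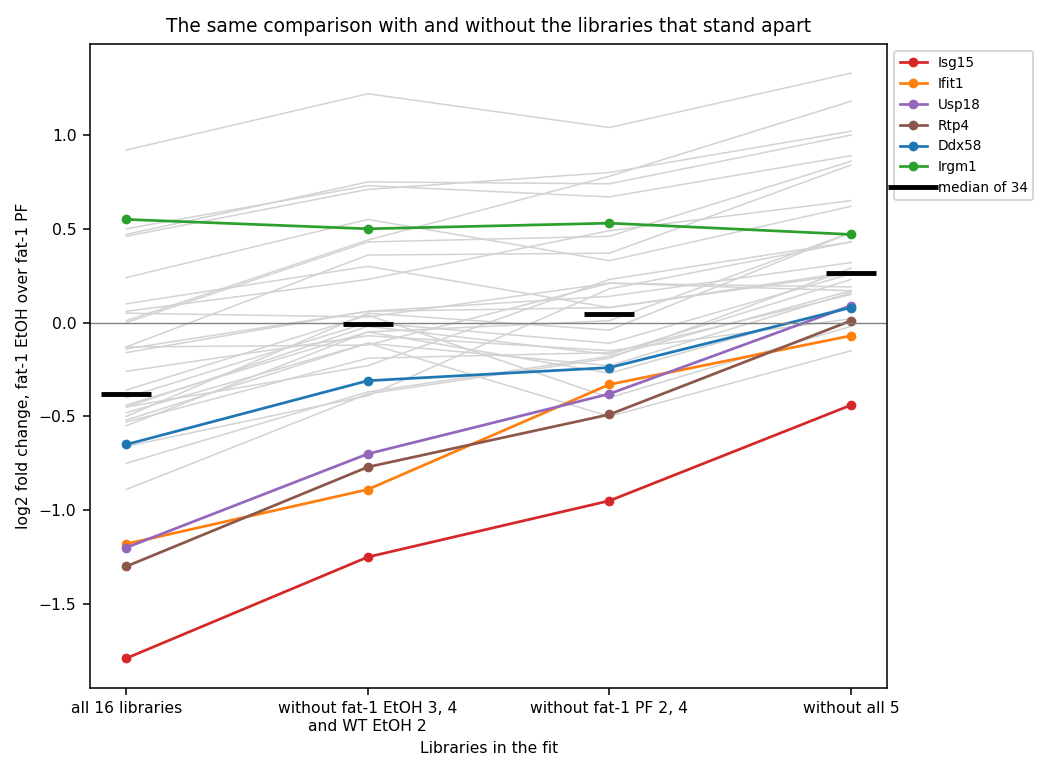
The y axis is the log2 fold change of fat-1 EtOH over fat-1 PF, and the x axis the libraries in the fit. Coloured lines are the 6 genes called with all 16 libraries, grey lines the other 28, and black bars the median of the 34, which goes from -0.38 to -0.01, 0.04 and 0.27.

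In wild-type mice, the same question gave no call. WT EtOH and WT PF differed by a median log2 fold change of -0.11 over the 34 genes, against 0.01 over all genes, and edgeR called 0 of 34. None reached an unadjusted p under 0.05. Over all tested genes edgeR called 0.0796% (11 genes). DESeq2 and limma voom also called 0 of 34, while over all genes they called 257 and 2800. Isg15 and Usp18 were the 2 genes whose groups did not overlap, both lower in WT EtOH, while 24.3% of all tested genes had groups that did not overlap. The smallest p belonged to Isg15, Mx1 (log2 fold change -0.34, SE 0.20, edgeR adjusted p = 0.463) and Zbp1, a sensor of Z-form nucleic acid (-0.74, SE 0.46, adjusted p = 0.474). Mx1 is a dynamin-like antiviral GTPase whose allele in C57BL/6 mice encodes no functional protein. Without the 3 large-intestine-like libraries, and without all 5, the medians were -0.16 and -0.15 with 25 of 34 negative and 0 called by edgeR, against 0.189% and 3.41% of all tested genes called. When only the wild-type groups were fitted, Isg15 was called (1 of 34 genes), with 1103 genes called in all.

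Averaged over genotypes with equal weight, Isg15 was 2.58-fold lower in EtOH than in PF mice (log2 fold change -1.37, SE 0.36, edgeR adjusted p = 0.0104) and Ifit1 1.81-fold lower (-0.85, SE 0.26, adjusted p = 0.0196). These were 2 of 34 genes (5.88%), both lower, while 35.9% of all tested genes were called, 17.6% lower and 18.3% higher. The next 3 by p were Irgm1 (0.29, adjusted p = 0.0681), Usp18 (-0.84, adjusted p = 0.0696) and Ddx58 (-0.38, adjusted p = 0.109). Isg15 remained called without the 3 large-intestine-like libraries (-1.07, adjusted p = 0.021) and without all 5 (-0.66, adjusted p = 0.0489), but not without fat-1 PF 2 and 4 (-0.95, adjusted p = 0.0758). Ifit1 remained called in the first of these fits (-0.81, adjusted p = 0.0489) and was not in the other 2. In the order named, these fits called 4534, 3781 and 3373 genes over all tested genes. The first also called Gbp2 higher. In the fit without all 5, Rsad2 was called higher in the average as well (0.95, edgeR adjusted p = 0.00319). With all 16 libraries it stood at 0.24 in the average and was not called (edgeR adjusted p = 0.582).

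The interaction, which asks whether the response to EtOH differed between genotypes, was called for 0 of 34 genes and for 0% of all tested genes by edgeR, and for 0 genes, listed or not, by DESeq2 and limma voom. Irgm1 alone had an unadjusted p under 0.05 (difference of log2 fold changes 0.52, SE 0.24, edgeR adjusted p = 0.595), followed by Rtp4 (-1.21, SE 0.70, adjusted p = 0.61) and Parp14 (-0.65, SE 0.39, adjusted p = 0.614). A larger response in fat-1 than in WT mice was therefore not shown for any of the 6 genes called in fat-1 mice. The median interaction was -0.22, and 0.47 without all 5 libraries.

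Between genotypes on the PF diet, 0 of 34 genes and 0% of all tested genes were called by edgeR. DESeq2 and limma voom also called 0 of 34, while over all genes they called 189 and 31. An unadjusted p under 0.05 occurred for 4 genes. Gbp6, whose count is uncertain, was lower in fat-1 PF (-1.21, SE 0.47, edgeR adjusted p = 0.291), as were Irgm1 (-0.40, SE 0.17, adjusted p = 0.345) and Mx1 (-0.41, SE 0.19, adjusted p = 0.392), and Rtp4 was higher (1.11, SE 0.49, adjusted p = 0.37). Gbp6 and Mx1 did not overlap between the groups, against 6.87% of all tested genes whose groups did not. The median over the 34 genes was 0.17 with 23 above 0, and -0.20 with 27 below 0 once fat-1 PF 2 and 4 were left out. Without all 5 it was -0.20 with 28 below 0, and no gene was called by edgeR in either fit, over the list or over all genes.

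On the EtOH diet, fat-1 and WT mice differed in 0 of 34 genes by edgeR, which called 0.00724% of all tested genes (1 gene). DESeq2 and limma voom also called 0 of 34, with 5 and 1 called over all genes. Parp14 was the 1 gene with an unadjusted p under 0.05. The smallest p belonged to 3 neighbours on chromosome 16 that act together in ADP-ribosylation and ubiquitylation, Parp14 (-0.62, SE 0.28, edgeR adjusted p = 0.757), Dtx3l (-0.54, SE 0.27) and Parp9 (-0.46, SE 0.26), with the same adjusted p. All 3 were lowest in fat-1 EtOH 3 and 4. Parp14, for example, stood at 51.8 and 55 CPM there, and at 98.3 to 144 in the other 3 fat-1 EtOH mice and 130 to 160 in WT EtOH. The median over the 34 genes was 0.01, and 0.29 with 30 above 0 without the 3 large-intestine-like libraries and 0.28 with 30 above 0 without all 5. In both fits edgeR called 0 of the 34 and 1 gene in all.

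The GTPases are described by mouse, a choice made after their values were seen. Their median log2 level over the WT PF mean was low in fat-1 EtOH 3 and 4 (-0.77 and -0.50), and as low in fat-1 EtOH 2 (-0.77) and fat-1 PF 1 (-0.70). Fat-1 EtOH 5 held 1 of the 2 highest values for 6 of the 8 GTPases, and so did WT PF 4. The same count was not made over all tested genes. Gbp2 stood at 36.3 CPM in fat-1 EtOH 5 and 27.5 in WT PF 4, against 12.9 to 24.8 in the other 14 mice. Gbp7 stood at 22.4 and 14.5, against 7.22 to 12.6. Fat-1 EtOH 5 also held the highest B cell markers (572 CPM, with 116 in WT PF 4 and 2.68 to 97.7 elsewhere), the highest macrophage markers (777, with 302 in WT PF 4 and 123 to 361 elsewhere) and the highest summed T cell markers (192, with 117 in WT PF 4 and 23.5 to 168 elsewhere). Within that list Cd3e and Cd2 were highest in fat-1 EtOH 5 (21.8 and 24 CPM), while Gzma and Gzmb, which encode granzymes, stood at 36.9 and 10.6 there, below every PF library. Their part in these levels was not tested. In the fit without all 5 libraries, the 8 GTPases were all above 0 in fat-1 EtOH over fat-1 PF, with a median of 0.76, and none was called.

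**Figure D5:**
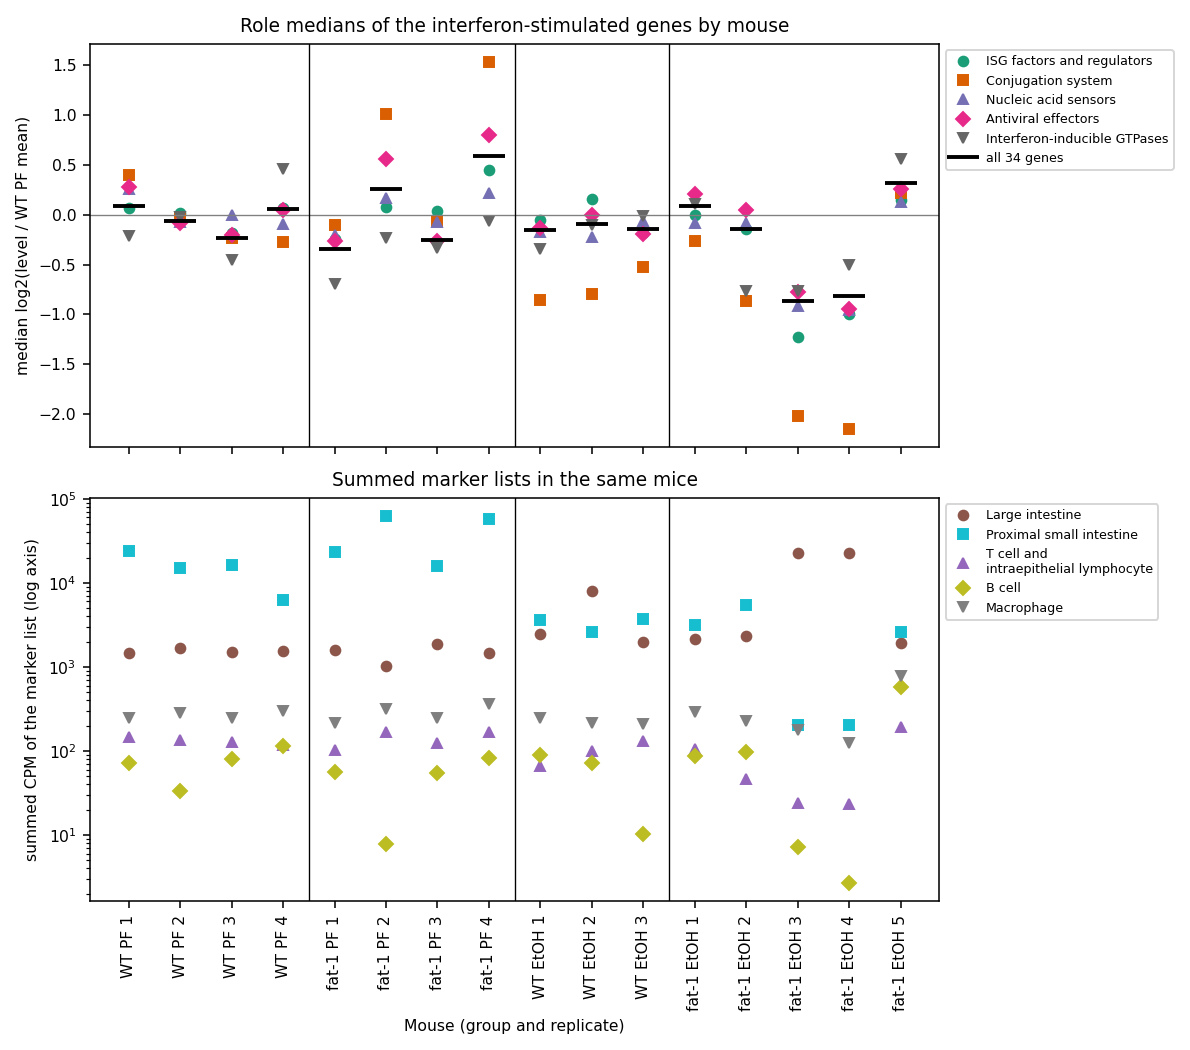
The upper panel gives, for each of 16 mice, the median log2 level over the WT PF mean for each role and for all 34 genes, and the lower panel the summed CPM of 5 marker lists on a log axis. All roles lie below 0 in fat-1 EtOH 3 and 4 (medians over 34 genes of -0.87 and -0.82), where large intestine markers are highest. The GTPases are highest in fat-1 EtOH 5 (0.56) and WT PF 4 (0.46).

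Other genes of the pathway were counted from lists that name no member. All 21 interferon ligands had a row, 19 were at 0 in every mouse, and the highest count of any in 1 library was 4, for Ifng, so that at this depth ligand RNA was at or near the floor and no ligand was tested. Of the 31 receptors, kinases, transcription factors, sensors and brakes tested, 14 (45.2%) were called in fat-1 EtOH against fat-1 PF, 3 higher and 11 lower, and 10 (32.3%) in the average over genotypes, 3 higher and 7 lower. Over all tested genes these shares were 37.4% and 35.9%. None was called in the other 4 comparisons by edgeR, where unadjusted p under 0.05 occurred in 2 to 5 genes each.

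Among 9 receptors and kinases in the average over genotypes, 4 fell and 1 rose. Il10rb, the shared chain of the receptors for type III interferon and interleukin 10, fell by 0.69 (SE 0.11, edgeR adjusted p = 7.0e-04), and PF mice lay between 80.7 and 178 CPM and EtOH mice between 65.4 and 81.1. Jak2, a kinase at the interferon gamma receptor, fell by 0.52 (SE 0.16, adjusted p = 0.0232). It stood at 102 and 97.2 CPM in fat-1 EtOH 3 and 4 and between 176 and 289 in all others. Ifnlr1, the chain particular to type III interferon, fell by 0.43 (SE 0.16, adjusted p = 0.0459). Its highest values were 44.5 and 45.2 CPM in fat-1 PF 2 and 4. Its lowest were 14.4 and 18 CPM in fat-1 EtOH 3 and 4. Ifngr2 fell by 0.51 (SE 0.11, adjusted p = 0.00273), while Ifngr1 rose by 0.43 (SE 0.11, adjusted p = 0.0091). Tlr3, the endosomal sensor of double-stranded RNA, rose by 0.40 (SE 0.06, adjusted p = 5.9e-04). Its level was 31.8 to 39.4 CPM in PF mice and 39.8 to 49.9 in EtOH mice. Mavs, the adaptor of RIG-I on mitochondria, fell by 0.63 (SE 0.11, adjusted p = 0.00108). Of the other sensing genes, Ticam1 and Tbk1 were called lower as well (both -0.39, edgeR adjusted p = 0.0364 and 0.0297). Ifnar2, a chain of the type I receptor, fell in fat-1 mice by 1.19 (SE 0.37, adjusted p = 0.0217), and its highest values were 32.4 and 25.7 CPM in fat-1 PF 2 and 4. Without all 5 libraries, 8 of the 31 (4 lower, 4 higher) were called in the average, while 27.6% of all tested genes were. Il10rb, Ifngr1, Ifngr2, Mavs and Tlr3 were among the 8, and Ifnar2 was not called in fat-1 mice.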

How the data were processed

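RNA was extracted from a segment of terminal ileum of 16 mice, and poly A selected, strand-marked (dUTP) libraries were sequenced. The authors aligned reads to mm10 with TopHat2 and deposited 1 table of raw read counts per gene, counted with HTSeq by the table's own name, while the version and settings are not given in the sources used here. Gene names, exon lengths and coordinates came from GENCODE M21 (GRCm38).

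The filterByExpr function, given the 4 groups, set which genes were kept. The counts were scaled by TMM and fitted with edgeR 4.0.16 (quasi-likelihood, robust) in R 4.3.3, with all 16 libraries in 1 fit without covariates and Benjamini-Hochberg adjustment over 13811 genes at 0.05. The standard error was the log2 fold change over the square root of F. CPM of single mice used TMM-adjusted library sizes. DESeq2 1.42.0, limma 3.58.1 (voom with sample weights), other scalings, other filters, the replicate number as a block, and fits without single mice were alternatives. The scripts were tested on simulated data.

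Values in every mouse are given for members called in at least 1 comparison and for the 3 highest per length. In each comparison called members are named, and otherwise the 3 with the smallest p. Other members and marker genes were named after their values were seen. The members, gene lists and markers were chosen with earlier results of these data known. Libraries were numbered within groups as the labels give them. No label says more of how mice share cages or litters. The p-values measure the spread between these mice and take the mice as independent, which could not be checked. Library numbers follow diet, so the order of libraries and diet cannot be told apart.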

Additional observations from a re-analysis of the deposited data

Results flagged for a closer look

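Among 102 pairs of gene and group tested for 1 value far from the others of its group, 4 stood out, and chance gives about 1 in 20. WT EtOH, with 3 mice, was not tested. Ifit2, a relative of Ifit1, stood at 8.59 CPM in fat-1 PF 4, and the nearest of the other fat-1 PF mice at 4.35. Oasl2 stood at 101 CPM in WT PF 1 and at 52 in the nearest other WT PF mouse. Gbp7 stood at 11.4 CPM in fat-1 PF 4 and at 9.55 in the nearest. Irgm1 stood at 32.4 CPM in fat-1 EtOH 2, below the nearest value of 46.9.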

How the results depend on the processing

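In fat-1 EtOH against fat-1 PF, 6 of 34 genes were called, with 5170 genes called in all. The count was 6 with DESeq2 (5556 in all) or its size factors (5167), 4 with upper-quartile scaling (5659) or at least 10 counts in every mouse (4519), 3 with at least 1 count in any mouse (4939), and 2 with limma voom (3649; Isg15 and Usp18) or with only those groups fitted (3086; Isg15 and Irgm1). Leaving out 1 mouse at a time gave 2 to 9 calls. The count was 3 without WT PF 3, fat-1 PF 2 or fat-1 EtOH 4 and 2 without fat-1 PF 4. Isg15 (-2.07 to -1.44) and Irgm1 (0.51 to 0.66) were called in all 16 of these edgeR fits, though limma voom lost Irgm1, Ifit1 in all but that without fat-1 PF 4, and the calls of Usp18, Ddx58 and Rtp4 were lost in 13, 10 and 6. Chosen after the data were seen, the fits without the large-intestine-like libraries, without fat-1 PF 2 and 4, and without both sets gave 2, 0 and 1 calls (4096, 1965 and 1626 in all), and in the last Usp18 (0.09), Ddx58 (0.08) and Rtp4 (0.01) changed sign. Averaged over genotypes, 2 genes were called (4955 in all), against 4 with upper-quartile scaling (5342), 7 with limma voom (5828) and 0 without fat-1 PF 2 and 4 (3373), and 1 to 4 without single mice (4 without WT PF 4 or fat-1 EtOH 5, 1 without WT EtOH 1). In wild-type mice only the groups compared gave 1 call (1103 in all) in place of 0 (11). Upper-quartile scaling put the all-gene median in fat-1 mice at 0.20 in place of 0.05. The cause of these changes was not tested. The other 3 comparisons had 0 calls in every fit. Same-numbered mice did not deviate together (mean r -0.022 over 21 pairs, 4 above 0.1, against 0.007 over 74 other pairs). The labels do not say whether numbers pair mice, and these correlations cannot exclude it. With the replicate block 9 genes were called in fat-1 mice (4748 in all), adding Irf9, Xaf1 and Parp14, and 3 in the average, adding Usp18. At this depth, interferon ligands could not be tested.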
